A study of Mus musculus with 10 samples.

Results

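Mouse embryonic fibroblasts carried on arrays titled as deleted for G9a were compared with fibroblasts of the same series in which wild-type G9a had been put back. The arrays were chosen by their titles: 2 arrays labelled deleted and 2 labelled WT, 4 of the 10 arrays in the series. Per the labels, the WT arrays came from cells without G9a that had received FLAG-tagged wild-type G9a, and the other groups of 2 received an empty vector (delta), FLAG-G9a with the K165A substitution, or the catalytic mutant H1093K. For the arrays labelled deleted the vector is unknown here, as are, for all groups, the age of the embryos, the strain, the exons removed and the number of clones. All groups therefore share, by their labels, the loss of the endogenous gene. The labels do not name separate cultures or embryos behind the 2 arrays of a group, so the p-values rest on array-to-array spread that may be technical.

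G9a, the product of Ehmt2, is a lysine methyltransferase that places mono- and dimethyl marks on lysine 9 of histone H3, mostly as a heterodimer with GLP (Ehmt1) and the zinc finger protein Wiz. The mark is read by HP1 proteins and is found over silent genes and broad repressed domains in differentiated cells, and G9a is also needed for DNA methylation at some loci. Fibroblasts from embryos keep expressing the Hox and other patterning genes of the body region they were taken from.

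The signal of probe sets for the targeted gene was not lower on the arrays labelled deleted. The brighter of 2 probe sets for Ehmt2 gave signals of 1678 and 1750 on the arrays labelled deleted and 676 and 620 on the WT arrays, with 415 to 725 on the other 6 arrays. Of these, delta gave 473 and 415, H1093K 461 and 494 and K165A 704 and 725. This probe set thus kept signal on the empty-vector arrays, and the arrays given H1093K overlapped with them. The difference was 1.38 ± 0.09 on the log2(signal + 16) scale (SE, 2 arrays a group), a 2.61-fold higher signal (adjusted p = 3.02e-06, limma). The second probe set gave 162 and 247 against 40.9 and 106, a log2 difference of 1.38 that did not pass the test (adjusted p = 0.0626, limma), and up to 178 on the other 6 arrays. The brighter probe set was thus higher on both arrays labelled deleted than on all 8 others, and the second had its highest group mean there. Which part of the transcript these probe sets match, and whether it lies in the removed exons or in the introduced FLAG-G9a, is not known here. They therefore do not settle the label, and the term arrays labelled deleted is kept throughout.

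In other respects the 4 arrays were of like quality. The trimmed mean signal was 500 on every array and the array medians lay between 181 and 200. The ratio of the 3′ to the 5′ control probe set for Gapdh was 0.773 and 0.766 on the arrays labelled deleted and 0.762 and 0.786 on the WT arrays. The fibroblast collagens Col1a1 (8274 and 8994 against 9418 and 7734) and Col1a2 (9878 and 10721 against 13065 and 10049) were high on all of them. Of the other markers of fibroblasts, Thy1, Sparc and Pdgfrb overlapped between the groups or did not pass the test, as did the brighter probe set of Fn1, while its second one was lower (794 and 658 against 1053 and 1266, adjusted p = 0.00132). Pdgfra and Col3a1 were higher and Vim and S100a4 lower in the arrays labelled deleted. S100a4 had signals of 1151 and 1255 against 5022 and 4725, with 4798 to 7178 on the other 6 arrays. Y-linked Eif2s3y, Kdm5d and Uty had signal on all 10 arrays, with Eif2s3y 1.27-fold lower in the arrays labelled deleted. Across probe sets, Pearson's r between an array labelled deleted and a WT array was 0.898 to 0.903, against 0.987 and 0.989 within the groups and 0.953 to 0.993 among the 8 arrays that were not labelled deleted (a description across probe sets, which are not replicates).

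Many transcripts differed, about as many in each direction. Of 13576 probe sets with a mean signal of at least 104 over the 10 arrays (the 40th percentile), 4523 passed an adjusted p of 0.05 (33.3%; 5842, or 43.0%, had an unadjusted p under 0.05), of which 2197 (16.2%) were higher and 2326 (17.1%) lower in the arrays labelled deleted. The share of calls that were higher was 48.6%, but with every array centred on its median it was 37.0%, and 63.0% were lower. Changes of more than 2-fold were made by 470 probe sets upward (3.46%) and 414 downward (3.05%). Both arrays labelled deleted lay above all 8 other arrays in 1835 of the 2197 higher probe sets, and below all 8 in 1916 of the 2326 lower ones; over all tested probe sets the numbers were 2694 and 2745. The arrays labelled deleted and WT did not overlap in 67.6% of all tested probe sets. Taking 1 probe set per gene, 2775 of 7761 genes were called (35.8%), 1399 (18.0%) higher and 1376 (17.7%) lower, with a median log2 difference of 0.01 over all genes tested. These shares are the background for every gene group below. Against the empty-vector arrays, which also lack wild-type G9a by their label, 4596 probe sets were called (33.9%). That comparison shares the arrays labelled deleted with the one against WT, so values are given side by side and no overlap is drawn from it.

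**Figure D1:**
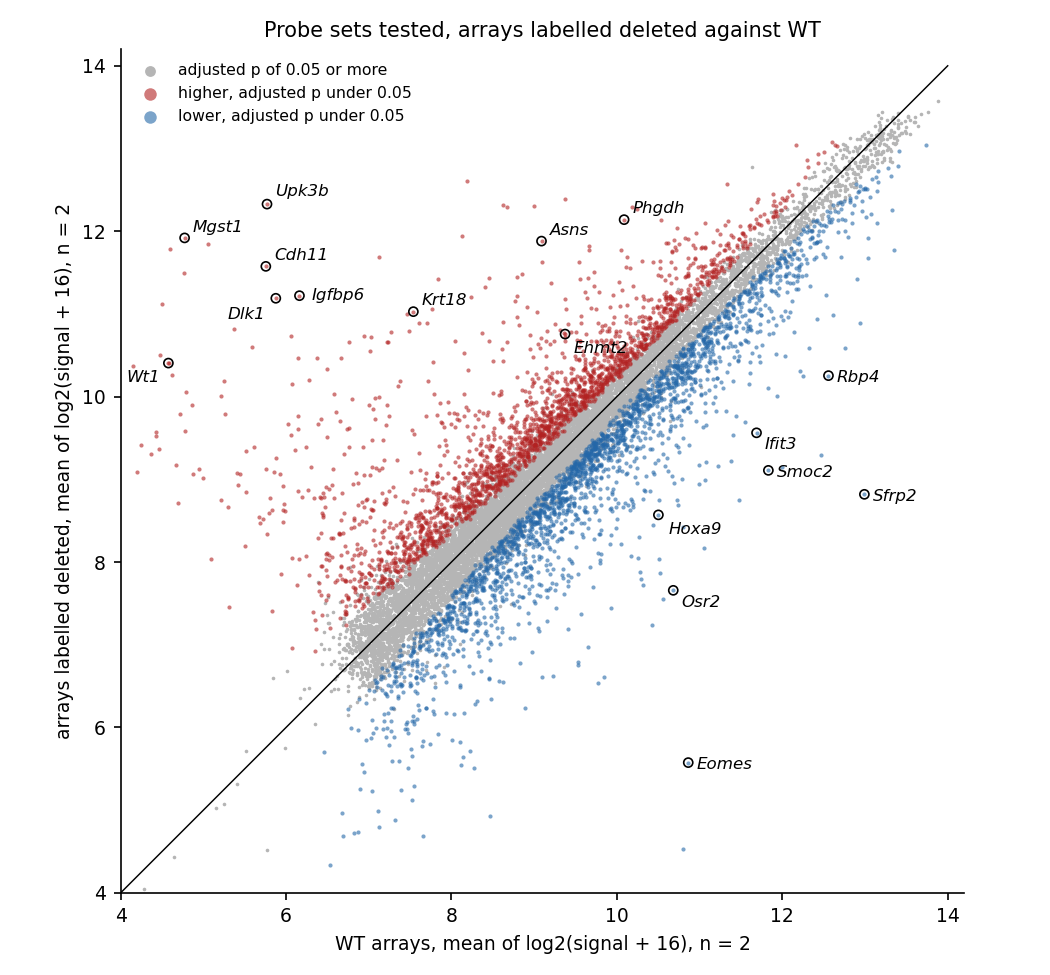
Mean log2(signal + 16) of each of the 13576 tested probe sets on the 2 WT arrays (horizontal) and on the 2 arrays labelled deleted (vertical), with the line of equal signal; red and blue points passed an adjusted p of 0.05 and ringed points are named genes. Genes such as Mgst1, Upk3b and Wt1 stand far above the line at WT signals near the floor, and Eomes, Sfrp2 and Osr2 far below it.

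The largest rises were in genes whose signal was low on all 8 other arrays. Mgst1, a microsomal glutathione transferase, gave 3717 and 4000 on the arrays labelled deleted and 12.9 and 9.87 on the WT arrays, a log2 difference of 7.15 ± 0.32 (adjusted p = 2.78e-07). No fold is given where a group's mean signal was under 16, as here. A second Mgst1 probe set, which lay under the filter on low signals, gave 26.6 and 13.2 against 2.50 and 4.52 and lay within the range of the other 6 arrays, and so does not show this rise. Upk3b, a uroplakin of urothelium and mesothelium, gave 4863 and 5399 against 42.0 and 35.3, 94.2-fold higher, and its second probe set gave 3282 and 3774 against at most 20.9 on the other groups. Ptn, the heparin-binding growth factor pleiotrophin, gave 3571 and 3729 against 13.6 and 21.5 (110-fold). In each of these the other 6 arrays lay with WT, none above 37.9. Wt1, a zinc finger transcription factor of kidney, gonad and mesothelium, gave 1294 and 1388 against 4.13 and 12.3 (log2 difference 5.83 ± 0.25). Cdh11, a cadherin of mesenchymal cells, gave 3013 and 3056 against 35.0 and 41.2, 56.5-fold higher. Dlk1, a Delta-like membrane protein that restrains adipocyte differentiation, gave 2129 and 2525 against 45.8 and 39.8, 39.8-fold higher.

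The rest of the 20 largest rises, chosen by size among called genes whose groups did not overlap, were of like kind. They were Ptgis (prostacyclin synthase), Pdzrn3, Dcn (the collagen-binding proteoglycan decorin), Frmd4b, Lpl (lipoprotein lipase), Myrf, Tenm3, Crabp1 (a retinoic acid binding protein), Slit3, Igfbp6, Gpm6a, Bnc1, Igfbp3 and Sfrp1 (a secreted Wnt antagonist). Their log2 differences ran from 4.80 for Sfrp1 to 6.73 for Ptgis. In all 20, both arrays labelled deleted lay above all 8 others. Of these 20 genes, 18 pass the filter on low signals through their mean linear signal over the 10 arrays and would not pass it on the mean log2 signal, so they entered through the arrays where they are high, and the choice of the linear mean was made after both results had been seen. The empty-vector arrays lay with WT: Igfbp6 gave 2371 and 2369 on the arrays labelled deleted, 55.9 and 55.3 on WT and 51.3 and 43.1 on delta. Myrf, a transcription factor of myelinating cells, had the highest delta signal of the 20, at 81.0 and 67.7 against 1064 and 1033 on the arrays labelled deleted.

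The largest falls included genes in which delta and WT also stood apart. Eomes, a T-box transcription factor of early mesoderm and the nervous system, fell from 1776 and 1919 on the WT arrays to 40.5 and 24.2 on the arrays labelled deleted, 39.1-fold (log2 difference -5.29 ± 0.16, adjusted p = 3.90e-08). The empty-vector arrays gave 306 and 339, between the other groups. Sfrp2, a secreted modulator of Wnt signalling, gave 414 and 458 against 8822 and 7499, and 484 and 112 on delta. Its difference from WT was -4.17 ± 0.46, but from delta it was 0.84 (adjusted p = 0.194). Osr2, an odd-skipped zinc finger factor of limb and palate, was also far below WT, with 171 and 202 against 1605 and 1648 on WT and 195 and 240 on delta. Its difference from delta was -0.21 (adjusted p = 0.240). In these 2 genes the arrays labelled deleted differed from WT and overlapped with the other arrays.

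Other large falls set the arrays labelled deleted apart from delta as well. Smoc2, a calcium-binding matrix protein, gave 524 and 548 against 3515 and 3746 on WT and 1378 and 1480 on delta. Cdo1, which oxidises cysteine, gave 399 and 427 against 2731 and 2947, and 1143 and 1155 on delta. Glipr1 gave 231 and 206 against 1472 and 1447 on WT, while delta was higher still at 3276 and 3608. Gjb2 (connexin 26), Serpinb1a and Slc1a6 showed that last order too, with delta above WT and the arrays labelled deleted below both. The remainder of the 20 were Cldn11, the chemokine Ccl7, Shisa2, Phex, Gpaa1, Wnt16, Chst7, Pstpip2, Plppr4, Tmem40 and the bone proteoglycan Omd, with log2 differences of -3.54 (Cldn11) to -2.48 (Omd). Of the 20 falls, 16 lay below all 8 other arrays; Sfrp2, Osr2, Gpaa1 and Plppr4 overlapped with some of them. Gpaa1 rests on a probe set that varied within delta (829 and 78.3), and its other probe sets gave log2 differences of 0.11 and -0.27 that did not pass; its call was lost in 3 of the 4 fits that left out an array. Among other genes named by the rule, several passed by their brightest probe set and had at least 1 more that was tested and did not pass, such as Cbx1, Cdc20, Dnmt3a, Egr2, Gadd45b, Id4 and Rif1.

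**Figure D2:**
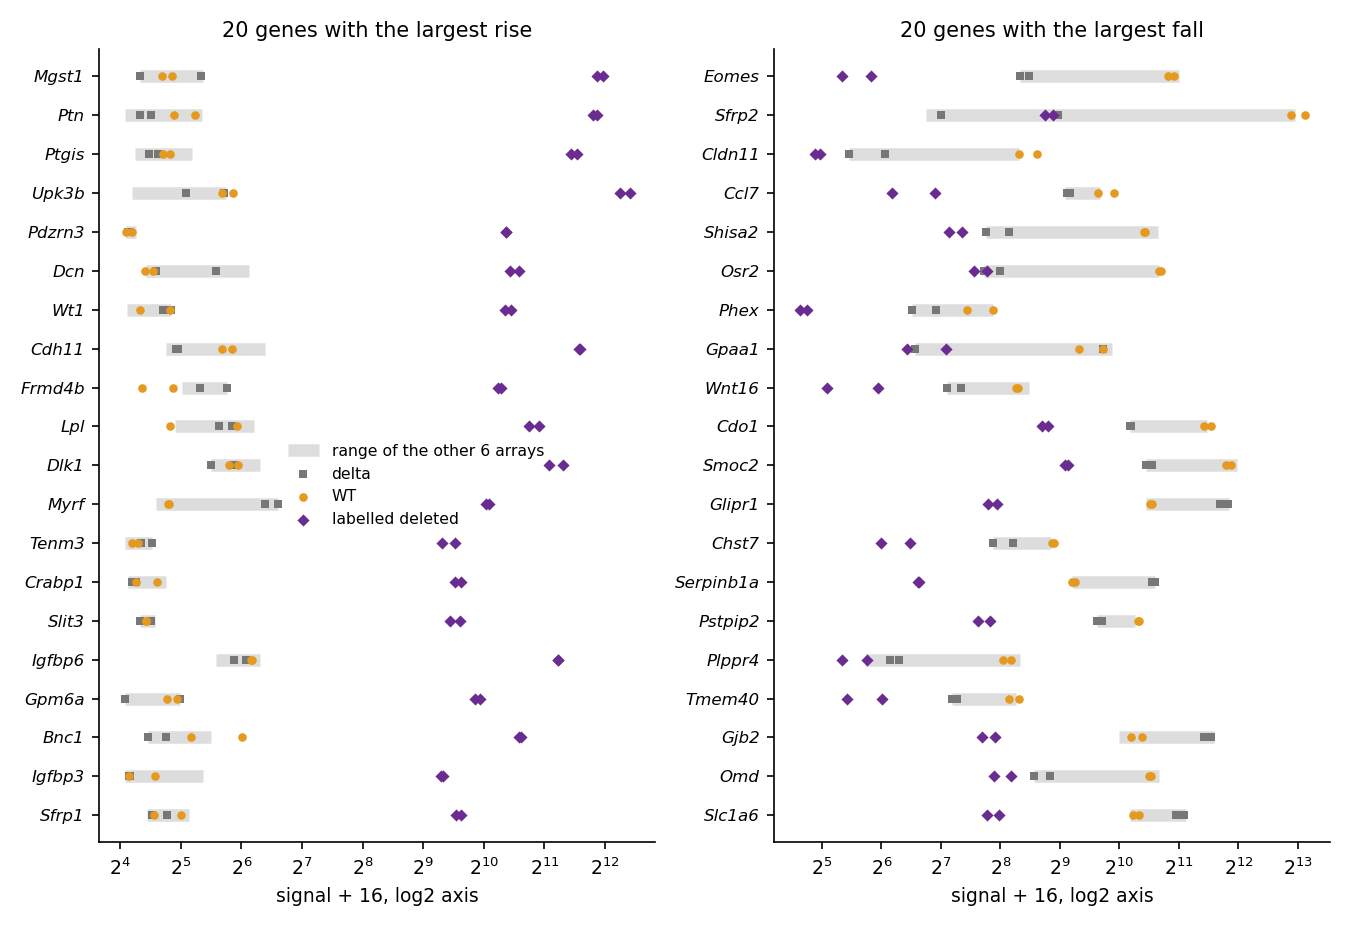
Signal + 16 on a log2 axis for the 20 genes with the largest rise (left) and the 20 with the largest fall (right); each point is an array and grey bars span the other 6 arrays, delta included. The arrays labelled deleted lie above every other array for the 20 rises, while for Sfrp2, Osr2, Gpaa1 and Plppr4 they overlap with the grey bars.

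Genes of the G9a complex and of H3K9 methylation changed little. Of 19 tested members (22 on the array), 4 were higher and none lower (21.1% called, against 35.8% of all genes). Beside Ehmt2, these were Cbx1 (HP1 beta), with 1674 and 1494 against 1309 and 1331, Phf8, a demethylase, and Rif1, a replication timing factor, each by at most 1.32-fold. The calls of Cbx1 and Phf8 were lost with median centring, and each of these 3 calls was lost in 3 of the 4 fits that left out an array. Wiz, the partner of G9a, gave 433 and 516 against 430 and 487. Of 11 tested DNA methylation genes, 4 rose and 2 fell. The de novo methyltransferases Dnmt3a (603 and 563 against 400 and 408) and Dnmt3b (163 and 145 against 87.9 and 89.4) were 1.42- and 1.62-fold higher. Gadd45a was 2.24-fold higher, Gadd45b was 1.75-fold lower and the helicase Hells, needed for DNA methylation, was 1.35-fold lower. Of 30 tested Polycomb and histone deacetylase genes, 10 fell and 2 rose, by at most 1.56-fold. Of 22 germline genes on the array, 1 passed the filter: Stag3, a meiotic cohesin, at 179 and 171 against 390 and 311, with 191 and 194 on delta.

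Imprinted genes, which are expressed from the allele of 1 parent, held several of the largest rises. Of 34 on the array 19 passed the filter, 3 of them with a mean under the cut-off in 1 of the groups compared, and 10 rose and 2 fell (median 0.43). Dlk1 and Meg3 are neighbours in 1 imprinted cluster, with Dlk1 expressed from the paternal and the non-coding RNA Meg3 from the maternal allele, and both were high only on the arrays labelled deleted: Meg3 gave 1845 and 1658 against 139 and 137, and 119 and 137 on delta. Igf2, a fetal growth factor expressed from the paternal allele, gave 1485 and 1731 against 123 and 146 (10.8-fold). Mest and Peg3, also paternally expressed, were 4.56- and 4.22-fold higher. Peg3 gave 3010 and 3278 against 663 and 809 on WT, and its delta signals of 194 and 139 were the lower ones. Dcn, which is imprinted in placenta, was among the largest rises. Ndn (2.19-fold), Impact (1.84-fold), the Igf2 receptor Igf2r (1.66-fold) and Ube3a (1.21-fold) were higher as well. Ndn, at 735 and 548 against 261 and 303, overlapped with the other 6 arrays (204 to 660). The growth restrainers Cdkn1c and Plagl1 fell: Cdkn1c gave 284 and 329 against 989 and 937, a 3.04-fold fall, with 519 and 494 on delta. Plagl1 gave 3673 and 3794 against 5845 and 5095. Both overlapped with the other 6 arrays, the lowest of which gave 319 for Cdkn1c and 1114 for Plagl1.

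Tested Hox genes moved in both directions. The posterior members of the Hoxa and Hoxd clusters that were tested, Hoxa9, Hoxa10, Hoxa11, Hoxa13, Hoxd9, Hoxd10, Hoxd11 and Hoxd13, all 8, were lower. Hoxa9 gave 383 and 346 against 1473 and 1396 (3.82-fold) and Hoxd13 gave 369 and 424 against 1057 and 1170 (2.74-fold). Delta was at 1717 and 1563 for Hoxa9 and at 898 and 1057 for Hoxd13, so the arrays labelled deleted lay below it too. Hoxa13, the weakest of the 8 at 84.1 and 108 against 185 and 156, overlapped with delta (113 and 83.2). The tested Hox genes of lower paralogue number, Hoxa3, Hoxa5, Hoxb2 and Hoxd8, were higher. Hoxa3, at 146 and 177, overlapped with the other 6 arrays, which reached 154. Hoxb2 gave 446 and 442 against 45.5 and 18.2 (log2 difference 3.33), and Hoxd8 gave 270 and 242 against 90.4 and 104. Of the homeodomain cofactors, Meis1 (418 and 432 against 49.4 and 66.0) and Meis2 (639 and 668 against 91.2 and 123) were 6.02- and 5.49-fold higher, Pbx2 and Pbx3 less so, and Meis3 did not pass. In all 16 of 17 tested members were called (94.1%) and 36 were on the array; 5 of the 17 had a mean under the cut-off in 1 of the groups. The description by paralogue number was made after the values were seen, and it does not extend to the Hoxb and Hoxc clusters. Of the 19 members that did not pass the filter, 10 lay above all 8 other arrays and 0 below. No such share over all probe sets under the filter is given here, so these counts have no background. The 10 included Hoxc8 (313 and 264 against 3.51 and 6.56), Hoxb9 (118 and 101 against 8.37 and 6.72) and Hoxc9 (at least 87.0 against at most 12.3). These 2 paralogues of Hoxa9 and Hoxd9 thus had the opposite direction, without a test. Hoxd1 was not among the 10 (19.2 and 9.20 against 32.3 and 21.7).

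Other transcription factors of limb, heart and trunk mesenchyme were likewise called in both directions. Of 32 tested, 8 rose and 13 fell (65.6% called). Eomes and Osr2 led the falls, followed by Lhx2 (93.9 and 79.8 against 315 and 307), Pax9, Foxc1 (1151 and 1322 against 3104 and 3098), Mef2c, Tbx5, a forelimb and heart factor, Tbx20, Tbx15 and Foxd1. Tbx5 gave 126 and 151 against 330 and 315 and lay below all 8 other arrays. The rises were led by Wt1 and the zinc finger factors Gata4 and Gata6 of heart, gut and coelomic lining. Gata4 gave 336 and 370 against 39.2 and 34.4 (6.98-fold) and Gata6 1701 and 2055 against 653 and 671 (2.78-fold). Nr2f1 and Snai1 were 2.38- and 2.15-fold higher. Twist1, Tbx3, Irx3 and Osr1 did not pass the test.

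**Figure D3:**
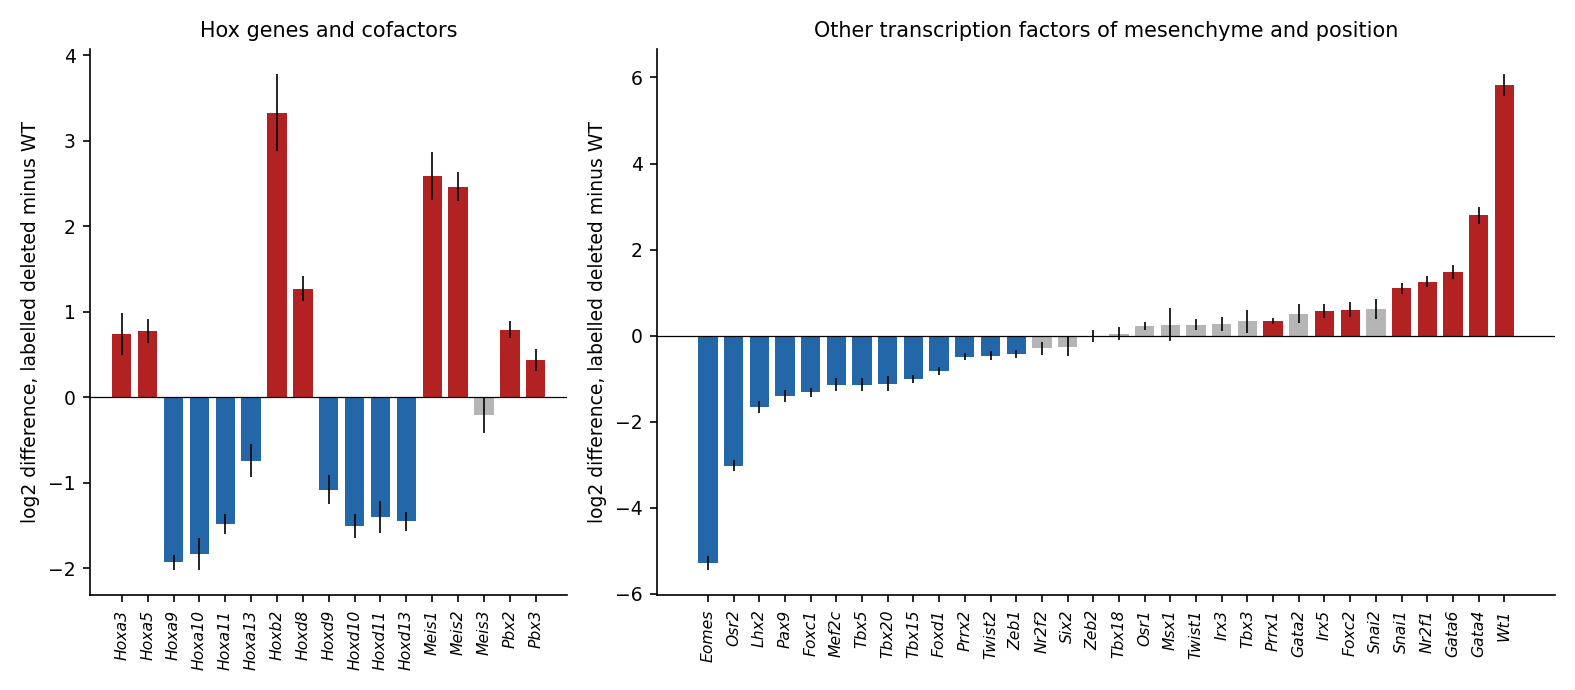
Log2 difference between the arrays labelled deleted and the WT arrays, with SE (2 arrays a group), for tested Hox genes in cluster order with their cofactors (left) and for other transcription factors of mesenchyme and position ordered by size (right); grey bars did not pass an adjusted p of 0.05. The 8 tested Hoxa and Hoxd genes from paralogue 9 onward lie below 0, and Hoxa3, Hoxa5, Hoxb2 and Hoxd8 above it.

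Epithelial markers moved in both directions. Of 33 on the array 18 were tested, 9 rose and 3 fell; 7 of the 18 had a mean under the cut-off in 1 of the groups. Against delta 7 were higher and 7 lower, with a median of -0.20. The keratin partners Krt8 (1577 and 1630 against 138 and 129) and Krt18 (2108 and 2035 against 172 and 168) were 10.9- and 11.2-fold higher. The desmosome genes Dsg2 (12.4-fold), Dsp (7.36-fold) and Pkp2 (2.31-fold) and the protease inhibitor Spint1 (5.17-fold) were higher as well. Pkp2, at 377 and 304 against 134 and 141, overlapped with the other 6 arrays (112 to 661). The desmosomal Jup was at 465 and 515 against 686 and 599 and did not pass. Cdh1 (E-cadherin) was at 31.9 and 16.1 against 175 and 168, the simple epithelial keratin Krt7 at 83.1 and 113 against 367 and 310, and mesothelin, Msln, at 1109 and 1238 against 1958 and 1877. Krt7 was highest on delta, at 2660 and 2557. The defining epithelial genes Epcam, Krt5, Krt14, Cldn3, Cldn4, Cldn7 and Esrp1 had signals of at most 110 on any of the 10 arrays. The summed signal of the 33 markers was 16126 and 16397 on the arrays labelled deleted, 7039 and 6932 on WT and 6512 to 13448 on the other 6, and its part in the other differences was not tested. Most of the gap to WT came from Upk3b (4863 and 5399 against 42.0 and 35.3), Krt18 and Krt8, so the sum does not stand for the whole list.

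Summed markers of other cell types differed less, though some did not overlap between the groups. The summed signal of 26 macrophage and leukocyte markers was 1336 and 1023 against 1289 and 1158, and Ptprc was at 12.0 to 37.3 on all 10 arrays. For 18 endothelial markers the sums were 1011 and 1001 against 864 and 892 (796 to 1107 on the other 6), with Pecam1 at most 29.2. For 28 muscle markers they were 864 and 768 against 820 and 651. Sums of 27 neuronal and glial markers were 3371 and 3186 against 3763 and 3579, below the other 6 (3649 to 4632) as well. Pmp22 alone, at 1450 and 1484 against 2233 and 2157, had a wider gap than these sums. The lower neuronal and glial sum thus does not stand for the whole list. Those of 23 bone and cartilage markers were 8879 and 8860 against 13154 and 10905, with 8819 to 13821 on the other 6. Most of that bone and cartilage signal was Mgp alone, at 6693 and 7292 against 9702 and 7499. The endothelial, neuronal and bone sums thus did not overlap between the arrays labelled deleted and WT, and their part in the other differences was not tested. Single members still moved, such as Mbp (428 and 468 against 49.5 and 59.9), which lies with Stmn2 (102 and 108 against 274 and 234) in the neuronal and glial list.

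Matrix genes moved in both directions. Of 19 tested collagens 6 rose and 5 fell, of 25 genes of collagen processing and elastic fibres 10 rose and 10 fell, and of 33 proteoglycans and matricellular proteins 7 rose and 12 fell. The basement membrane collagen genes moved in opposite directions by gene pair: Col4a1 (2632 and 2929 against 4636 and 4691) and Col4a2 were 1.68- and 1.72-fold lower, while Col4a5 and Col4a6 (1087 and 1209 against 182 and 206) were 2.16- and 5.54-fold higher. Col3a1, Col11a1 and Col12a1 were higher as well, and Col5a3 lower. Of microfibril and elastic fibre genes, Efemp1 (1949 and 1822 against 182 and 176, 9.75-fold), Mfap2, Ltbp2, Ltbp4 and Fbn2 were higher, and Mfap5 (897 and 818 against 2864 and 2654), Fbln5 and Ltbp1 lower. Fbn2 and Mfap2 differed among the other arrays too, with Fbn2 at 1304 and 1534, 632 and 647 on WT and 57.9 and 42.3 on delta. Postn (periostin) gave 1683 and 1695 against 105 and 108, 13.9-fold higher. Matricellular genes known as targets of mechanical and serum signals, Ccn2, Tnc and Thbs1, were 2.02-, 1.93- and 1.81-fold lower. Among 20 tested matrix proteases and inhibitors 5 rose and 9 fell, led by the inhibitor Timp3 at 4956 and 5058 (4.30-fold over WT), with 253 and 283 on delta. Of 16 tested integrins and cadherins, Cdh11, Vcam1, Cdh3 and Ncam1 rose and 6 fell, among them Itga7 (3.52-fold) and Cdh13 (4.64-fold).

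Growth factor genes held large rises, many in the insulin-like growth factor system. Of 32 tested genes of the IGF, FGF and PDGF families 15 rose and 7 fell (68.8% called, median 0.43); 6 of the 32 had a mean under the cut-off in 1 of the groups. Beside the ligand Igf2, Igf1 was 2.23-fold higher (392 and 354 against 172 and 145). IGF-binding proteins, which hold the ligands in the extracellular space, were higher for Igfbp2, Igfbp3, Igfbp4, Igfbp5 and Igfbp6 and lower for Igfbp7. Igfbp4 gave 5199 and 5513 against 573 and 727 (8.11-fold), Igfbp5 gave 649 and 667 against 56.4 and 62.5 (8.94-fold), and Igfbp7 gave 1302 and 1563 against 2056 and 2209. The receptor Pdgfra gave 1628 and 1743 against 46.2 and 55.7 (25.5-fold), with 5.78 and 5.48 on delta. Its ligand Pdgfc was 4.39-fold higher, the hepatocyte growth factor receptor Met 3.06-fold higher and Vegfa 9.26-fold higher (888 and 887 against 100 and 65.8). The EGF-family ligand Hbegf (1045 and 1131 against 3659 and 3603), the insulin receptor substrate Irs2 and Angpt1 were 3.31-, 2.41- and 3.65-fold lower.

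Developmental signalling genes moved in both directions. In the Wnt pathway 4 of 20 tested genes rose and 9 fell: beside Sfrp1 and Sfrp2, Wnt5a was 5.37-fold higher (402 and 439 against 67.8 and 62.6), Wnt16 6.78-fold lower and the agonist Rspo2 3.60-fold lower. The receptors Fzd2, Fzd4, Fzd7 and Fzd8 were all lower, Fzd4 alone of them below all 8 other arrays. In the BMP and TGF-beta pathway 7 of 32 rose and 7 fell. The BMP antagonist Grem1 gave 621 and 660 against 60.9 and 46.1 (9.50-fold) and the ligand Bmp4 1735 and 1753 against 623 and 739 (2.54-fold), while the target genes Id1, Id3 and Id4 were lower, Id4 by 2.25-fold. Of 15 tested Notch and Hedgehog genes 3 rose and 5 fell. The Notch targets Hes1 and Hey1 were among the falls: Hes1 gave 1187 and 1331 against 4818 and 4672 (3.74-fold) and Hey1 fell 4.88-fold from 273 and 247. Nrarp and the ligand Jag1 were lower too, and the receptor Notch3 was 2.32-fold higher. Of 23 tested axon guidance genes 6 rose and 8 fell. Slit3, with 681 and 760 against 5.48 and 5.51, and Sema3c rose, and the semaphorins Sema3a, Sema3b, Sema3e and Sema3f, their receptor Nrp1 and Ntn1 fell.

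Genes for making, importing and charging amino acids were higher almost throughout. The list also held 4 members of another role, Atf5, Vldlr, Stc2 and Sesn2. Of 34 tested members (41 listed, 37 on the array) 29 rose and 1 fell (88.2% called, against 35.8% of all genes), with a median log2 difference of 1.30 against 0.01. Without those 4, 26 of 30 rose and 0 fell, with a median of 1.24. In 5 of the 34 the mean of 1 group was under the cut-off. All 29 lay above all 8 other arrays. Asparagine synthetase, Asns, gave 3889 and 3623 against 517 and 540 on WT and 1085 and 1182 on delta (6.92-fold over WT). The serine synthesis genes Phgdh (4406 and 4588 against 1056 and 1088), Psph and Psat1 were 4.15-, 4.63- and 2.08-fold higher. They were followed by the one-carbon enzymes Mthfd2 (3.98-fold) and Shmt2 (2.63-fold), and by Cth (9.75-fold), which makes cysteine from cystathionine. Among transporters, Slc7a3, which carries cationic amino acids, gave 1024 and 948 against 105 and 86.1 (log2 difference 3.17). Slc7a5, Slc1a5, Slc6a9 and Slc1a4 rose as well, Slc7a5 by 3.10-fold. The tRNA synthetase genes rose more evenly, from Tars at 1.38-fold to Aars at 2.53-fold (3202 and 3161 against 1196 and 1298). The hormone gene Stc2 was the member that fell, by 1.75-fold.

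Transcripts of factors known to act in amino acid shortage and endoplasmic reticulum stress were higher too. Atf5 is also counted in the amino acid list, and the part of these factors in its rise was not tested. Atf4 gave 4105 and 4679 against 2115 and 2143 (2.05-fold), Atf5 gave 2712 and 3008 against 442 and 449 (6.22-fold), Ddit3 (CHOP) 834 and 826 against 400 and 338, and the kinase-like inhibitor Trib3 1365 and 1429 against 89.3 and 80.9 (log2 difference 3.81). Chac1, which degrades glutathione, was 6.83-fold higher and the oxidase Ero1a 4.11-fold higher. The unfolded protein response list as a whole, Trib3 included, moved less, with a median of 0.17. Of its 35 tested members 10 rose and 1 fell (31.4% called, near the 35.8% of all genes). By direction, 28.6% were higher and 2.86% lower, against 18.0% and 17.7% of all genes. Against delta the amino acid list had 29 higher and 0 lower members, with a median of 1.09 (36.5% of all genes were called there, 17.4% higher and 19.1% lower).

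Promoter sequences are shown for this list because 29 of its members moved together. The C/EBP-ATF response element, which is bound by ATF4 with a C/EBP partner, was searched as TGATGNAA on both strands from 250 bases before to 50 bases after each gene start in the RefSeq promoters of build GRCm38.p6. Of the 34 tested members 25 had a RefSeq promoter in the table, and 9 of these (36.0%) held the element, against 4.51% of 27025 genes. The 9 were Asns, Got1, Slc1a4, Aars, Gars, Iars, Tars, Yars and Vldlr. All 9 rose, but so did 21 of the 25 members with a promoter, so the rise does not set the 9 apart. Without the 4 members of another role, 8 of 21 held the element (38.1%). Genes of this list are known to be driven by ATF4, so a share above that of all genes is no separate result. The windows below lie before the gene start, 5′ to 3′ on the gene's strand, with the element in capitals; in Vldlr and Aars it reads as the reverse complement. They are those of the 3 genes with the largest rise that held the element there.
Vldlr, chr19:27216790-27216857, plus strand: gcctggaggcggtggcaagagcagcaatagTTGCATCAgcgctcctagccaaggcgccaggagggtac
Asns, chr6:7693210-7693262, minus strand: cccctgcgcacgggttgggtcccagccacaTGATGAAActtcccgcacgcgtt
Aars, chr8:111033700-111033767, plus strand: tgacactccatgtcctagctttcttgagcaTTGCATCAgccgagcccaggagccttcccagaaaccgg
Vldlr, a lipoprotein receptor, gave 900 and 776 against 72.3 and 67.9, Asns and Aars the values above. A match is a description of these letters and not evidence of binding.

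Genes of cholesterol synthesis rose by a small and even amount. Of 22 tested, 16 were higher and 0 lower (72.7% called), with a median of 0.44, and the highest was Fdps, farnesyl diphosphate synthase, at 3620 and 3549 against 2221 and 1927 (1.73-fold). Without the first array labelled deleted 9 of the 22 passed. Delta lay with the arrays labelled deleted: Fdps gave 3403 and 3480 there, Nsdhl 872 and 910, 558 and 612 on WT and 986 and 1084 on delta, and 5 of the 16 lay above all 8 other arrays. Against delta 6 members were higher and 3 lower, with a median of 0.02. A sterol response element searched as TCACNCCAC was found in 1 of 18 members with a promoter (5.56%), Hmgcs1, against 1.44% of 27025 genes.

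Other metabolic genes rose more than they fell. Of 22 tested lipid genes 12 rose and 3 fell. Lpl (1899 and 1693 against 12.2 and 44.7), the carrier Fabp5 (3.49-fold), Acsl4 and Elovl6 led the rises, and the lipid droplet gene Plin4 fell 2.67-fold. Of 27 tested genes of glycolysis and hypoxia 12 rose and 3 fell; 5 of the 27 had a mean under the cut-off in 1 of the groups. The glucose transporters Slc2a1 (825 and 729 against 328 and 267) and Slc2a3 (408 and 391 against 41.8 and 52.6) were 2.54- and 6.60-fold higher, the lactate exporter Slc16a3 5.92-fold and Aldoc 10.3-fold higher, while the hypoxia target Ndrg1 was 1.56-fold lower. Of 33 tested redox genes 9 rose and 8 fell. Mgst1 and Gsta4 (688 and 843 against 27.4 and 98.4) rose, and Hmox1, Gpx1 and Mt2 were 1.65-, 1.54- and 1.41-fold lower. Of 17 tested retinoid and xenobiotic genes 9 rose and 3 fell. Crabp1, Crabp2 (934 and 975 against 227 and 206), Aldh1a1 and Aldh1a2, which makes retinoic acid, were higher. The retinol carrier Rbp4 (1190 and 1220 against 6202 and 5833), the dehydrogenase Rdh10 (506 and 482 against 2108 and 2135) and the receptor Rarb were 4.94-, 4.19- and 2.50-fold lower. Aldh1a1, at 1395 and 1310 against 198 and 208 on WT, lay below delta at 2049 and 1624.

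Interferon-stimulated genes were lower as a group. Of 44 tested (47 on the array) 24 fell and 3 rose (61.4% called), with a median log2 difference of -0.39, and 24 lay below all 8 other arrays. Ifit3, an RNA-binding antiviral protein, gave 744 and 736 against 3370 and 3201 on WT and 2118 and 2115 on delta (4.36-fold). Ifit1 and Ifit2 were 2.56- and 2.86-fold lower, and the immunity GTPases Irgm1 (1139 and 1112 against 3092 and 3078) and Iigp1 2.72- and 3.09-fold lower. Oas2 was low on the arrays labelled deleted and on WT (87.2 and 101 against 181 and 133) and high on delta (1350 and 1354). Trim25, a ubiquitin ligase of RIG-I signalling, Rsad2 and Gbp2 were the members that rose, by 1.87-, 1.59- and 1.51-fold, and of these Trim25 lay above all 8 other arrays. Against delta 30 of the 44 were lower and 1 higher, with a median of -0.75.

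Promoters of this list are shown because its fall was shared by 24 members. The interferon-stimulated response element, bound by STAT and IRF factors, was searched as GAAA repeated after any 2 bases, on both strands, in the same promoters and was found in 18 of the 32 members with a RefSeq promoter (56.2%), against 3.99% of all genes. Of the 16 members that fell and had a promoter, 9 held it: Ifit1, Ifit3, Oas1a, Stat2, Bst2, Igtp, Irgm1, Gbp7 and Trim30a. That share was the same as in the whole list, so holding the element did not set apart the members that fell. The list is made of interferon-stimulated genes, so its share above that of all genes is no separate result. The windows are printed as before, and in Ifit3 the element reads as the reverse complement.
Ifit3, chr19:34583343-34583412, plus strand: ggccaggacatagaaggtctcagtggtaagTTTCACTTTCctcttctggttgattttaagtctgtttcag
Irgm1, chr11:48871421-48871480, minus strand: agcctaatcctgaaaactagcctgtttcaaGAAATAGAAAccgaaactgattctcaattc

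Chemokines and inflammatory genes did not follow 1 direction. Of 29 tested, 9 rose and 7 fell, with 6 of the 29 under the cut-off in 1 of the groups. Ccl7 (104 and 56.2 against 949 and 780), Il1rn, Ptgs2, Nfkbia, Ccl2 and Cxcl1 fell, and Il33 (988 and 1038 against 27.8 and 15.2, 27.8-fold), Tnfaip2, Cxcl5 and the stromal chemokine Cxcl12 (6249 and 5894 against 2563 and 2556) rose. In antigen presentation 3 of 17 rose and 2 fell; Tap2 gave 320 and 329 against 137 and 146, and delta lay with it at 294 and 328. Of 13 tested complement, iron and acute phase genes 6 rose and 2 fell, led by Cp (ceruloplasmin), at 623 and 648 against 34.2 and 25.6.

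Contractile genes were lower. Of 23 tested (28 on the array) 17 fell and 1 rose (78.3% called), with a median of -0.47, and 16 lay below all 8 other arrays. Without the first array labelled deleted 8 passed in that direction. Myl9, the myosin regulatory light chain of smooth muscle, gave 1896 and 1986 against 5530 and 5424 (2.81-fold). Cnn1 (calponin) was 2.18-fold lower, Acta2 (6158 and 6155 against 10368 and 8082) 1.49-fold and Tagln 1.33-fold. Actg2, enteric gamma actin, was the member that rose, at 197 and 195 against 59.5 and 48.7, and delta was higher still at 514 and 591. Of 36 tested immediate early genes and feedback regulators of MAP kinases 8 rose and 11 fell. Dusp1 (3760 and 3940 against 9398 and 7446), Klf2 and Noct were lower and Egr2 (1389 and 1332 against 375 and 384) and Dusp6 higher.

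Genes of the cell cycle engine showed small differences. Of 47 tested DNA replication genes 2 rose and 10 fell (25.5% called), and of 46 mitotic genes 8 rose and 4 fell (26.1%), against 35.8% of all genes, with log2 differences between -0.83 and 0.49. Mki67, the proliferation marker, gave 2231 and 2408 against 3203 and 3016 and 2375 and 2579 on delta. Larger differences were found among regulators: of 40 tested p53 targets and cell cycle brakes 13 rose and 10 fell. Cyclin D2, Ccnd2, gave 2571 and 2515 against 346 and 303 (7.53-fold) and cyclin D1, Ccnd1, was 2.44-fold higher. The inhibitor Cdkn1a (p21) gave 762 and 910 against 342 and 271 on WT, with 786 and 870 on delta. Pmaip1, Fas and Cdkn2c were 2.10-, 2.49- and 1.82-fold lower.

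**Figure D4:**
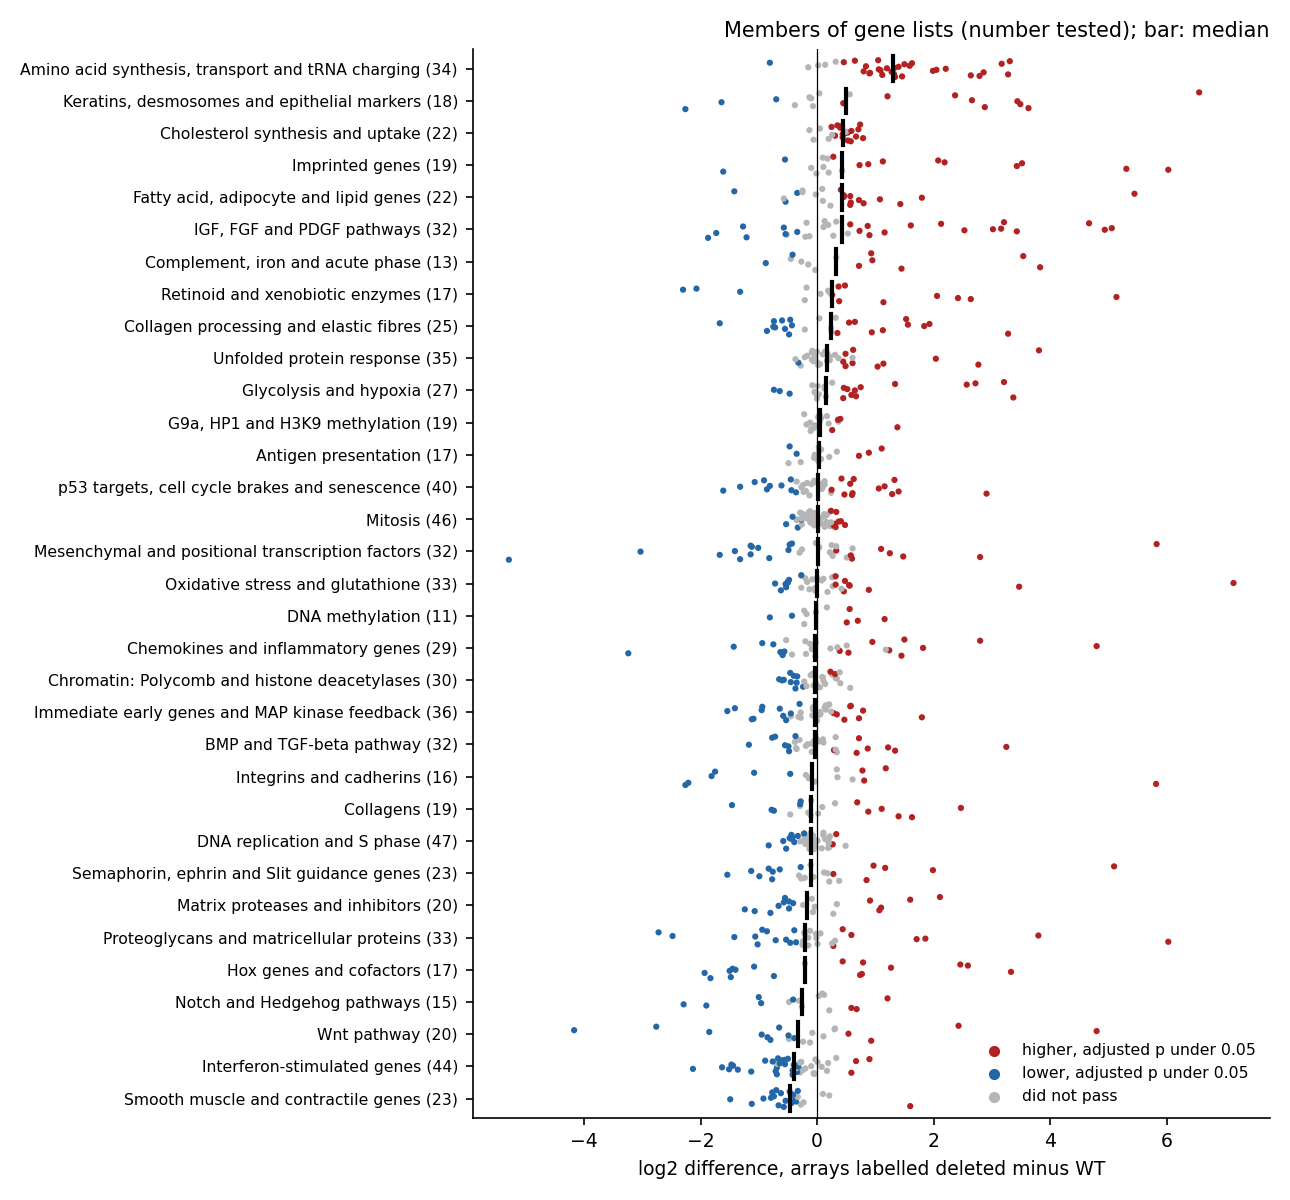
Log2 differences (arrays labelled deleted minus WT) of the tested members of each gene list with at least 11 tested members; a point is a gene by 1 probe set, a black bar the median, and numbers in parentheses count tested members. Amino acid genes have the highest median at 1.30 and contractile genes the lowest at -0.47, and many lists spread widely on both sides of 0.

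Grouping the tested genes by chromosome, which was done after the values were seen and is given without a test, showed unequal shares. Of 7747 genes with a chromosome in the RefSeq table of GRCm38.p6, the share that was higher ran from 8.88% on chromosome 4 to 30.5% on chromosome 14, against 18.0% of all genes. On chromosome 10, 35 of 383 genes were higher and 121 lower (median log2 difference -0.17), and on chromosome 4, 43 of 484 were higher and 126 lower. On chromosome 2, 171 of 635 were higher and 68 lower (median 0.15), and on chromosome 3, 121 of 406 were higher and 58 lower. On 16 of 20 chromosomes the median had the same sign in all 4 pairings of an array labelled deleted with a WT array. Medians of delta minus WT ran from -0.12 on chromosome 12 to 0.17 on chromosome 17. For the mutants they ran from -0.02 to 0.02 (K165A) and from -0.06 to 0.05 (H1093K). Neighbouring genes called in 1 direction included 7 X-linked genes from Armcx4 to Bex1 that were higher, 7 from Oxr1 to Eny2 that were lower (median -1.10) and the posterior Hoxa genes. These are examples from a longer set of runs. How many runs would arise without regard to position was not worked out, so they have no background.

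**Figure D5:**
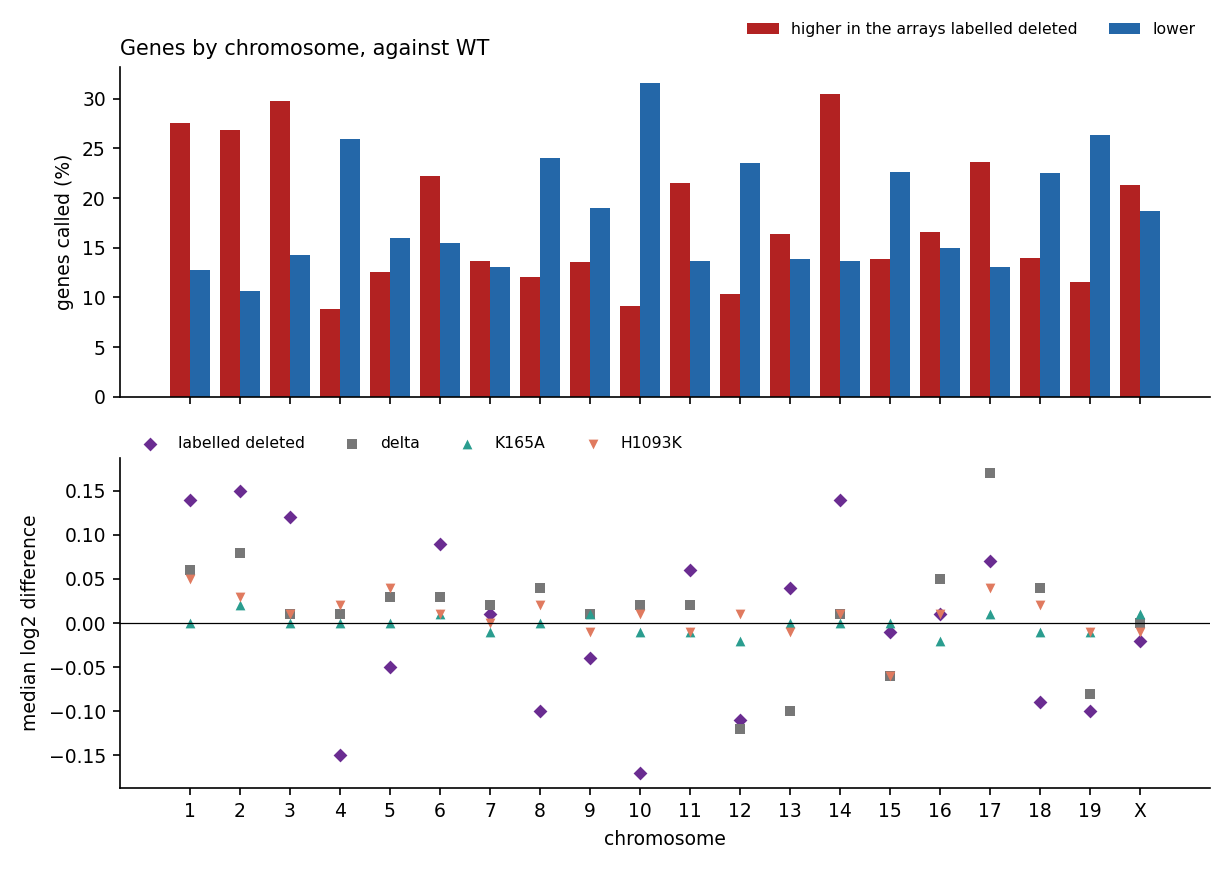
Top: percent of tested genes on each chromosome that were called higher (red) or lower (blue) in the arrays labelled deleted than in WT. Bottom: median log2 difference from WT of the genes on each chromosome for each group of 2 arrays; the arrays labelled deleted range from -0.17 (chromosome 10) to 0.15 (chromosome 2), delta from -0.12 to 0.17 and the mutants lie near 0.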

How the data were processed

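Total RNA of mouse embryonic fibroblasts, 10 samples, was hybridised to Affymetrix 3′ expression arrays. The authors deposited linear signal intensities from GCOS 1.4, per the submitters' processing notes; its background and scaling options are not known here. Of 22690 probe sets 64 controls were left out; the platform annotation named 20380 of the others by 1 gene, and only these were named. Signals were used as log2(signal + 16). Probe sets with a mean signal under the 40th percentile over the 10 arrays were left out. This filter was first applied to the mean of log2(signal + 16), which called 4398 probe sets; the mean of the linear signal was taken as the main setting after the results of both had been seen, and it changed which genes were the largest rises. In R 4.3.3, limma 3.58.1 (lmFit, eBayes with trend) was fitted with 1 mean per group to all 10 arrays, and p-values were adjusted by Benjamini-Hochberg over the 13576 probe sets; every adjusted p is from this fit, without a replicate block. A fold is 2 to the power of the log2 difference and so understates changes of low signals. An exact permutation test of 2 arrays against 2 cannot go below p = 0.333. For arrays, their number limits the precision. The fit was tested on simulated data.

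A gene was taken by its probe set of highest mean signal. Named genes were the 20 largest rises and falls with non-overlapping arrays, Ehmt2, and up to 4 members of smallest p per list; other list members named were chosen after their values were seen. Members and lists were chosen with earlier results of these data known. Lists are described by counts and medians, without set tests. Gene symbols, chromosomes and promoters came from RefSeq tables of GRCm38.p6. Alternatives were other pseudocounts, filters, scalings, fits and each array left out.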

Additional observations from a re-analysis of the deposited data

Results flagged for a closer look

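Outside the tested probe sets, 1 of 19 murine control probe sets, AFFX-MURINE_b1_at, had a mean signal of 7003 on the arrays labelled deleted (6693 and 7312), above all 8 other arrays (2092 to 3129, with 3129 and 2855 on WT). It is a control of the array design and no gene is named for it in the sources used here. Of the 64 control probe sets, 1 lay above all 8 other arrays and 5 below them.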

How the results depend on the processing

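Of the 40 largest rises and falls, 39 kept their call under every alternative in which they were tested (Gpaa1 was the exception), and of 167 called genes named by the rule 148 did; none reversed. The choice between the filter on the mean linear signal and that on the mean log2 signal was made after both results had been seen. The latter leaves out 18 of the 20 largest rises and 1 of the 20 largest falls, and the filter at the 60th percentile 18 of the 40, so their calls were not tried there. The number of probe sets called was 3069 to 3294 in the fits that left out an array, 3434 with the filter at the 60th percentile, 4398 with a filter on the mean log2 signal and 4455 with median centring. Replicate numbers are shared between groups, but the labels do not say that they mark a batch. Differences between the replicates of a group correlated between groups at r = 0.229 to 0.509 (0.247 for WT with the arrays labelled deleted), and with a replicate block 5906 probe sets were called, with 2 pairs to a comparison. The median of the amino acid list, 1.30, was 1.21 with a pseudocount of 64, 1.20 without the filter and with that at the 60th percentile, 1.23 with median centring, 1.19 with the mean of a gene's probe sets, and 1.24 to 1.31 without 1 array. That of the interferon list, -0.39, was -0.35 with a pseudocount of 64 and without the filter, -0.41 at the 60th percentile and -0.46 with median centring, and that of the cholesterol list, 0.44, was 0.37 with median centring. Left out 1 array at a time, 9 to 12 of the 22 tested cholesterol genes rose and 8 to 15 of the 23 tested contractile genes fell, with the lowest counts without deleted replicate 1; fewer arrays entered these fits, and the cause of the other shifts was not tested. Of 38 lists with a median, 17 changed its sign under some alternative. Among them were Hox genes (-0.21, and 0.40 without the filter) and the 4 tested bone and cartilage markers (-1.61, and 0.04 without the filter). The IGF, FGF and PDGF list was another (0.43, and -0.01 at the 60th percentile). The medians of those lists depend on the filter and do not stand for their members. For arrays, 2 to a group and a signal near the floor limit what can be told.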
